A study of Mus musculus with 20 samples.

Results

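The genes described here encode 9 proteins of the tight junction, and all 9 were found by mouse symbol among the 30265 Ensembl genes of both count tables. They are the claudin genes Cldn3, Cldn4, Cldn6 and Cldn7, the occludin gene Ocln, the zonula occludens genes Tjp1 and Tjp3, the cingulin gene Cgn and the junctional adhesion molecule gene F11r. Their transcripts were read in all 20 libraries of a study on the transcription factor Klf5, a zinc-finger protein of the Krüppel-like family.

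The libraries fall into 4 groups. There were 2 libraries of mouse embryonic stem cells (ESCs, pluripotent cells of the early embryo kept in culture) overexpressing Klf5 and 2 of ESCs overexpressing green fluorescent protein (GFP). All ESCs came from C57BL/6J mice and grew with LIF on irradiated mouse fibroblast feeders. There were also 6 single E4.5 embryos treated with an siRNA against Klf5 and 10 treated with a scramble siRNA, 1 library each, labelled as C57BL/5J and cultured in KSOM medium. The series text says that the siRNA was injected. The vector that drove Klf5 or GFP, the number of ESC clones and the stage of injection are not given in the sources used here. Nothing in the labels states that the 2 ESC replicates of a group came from separate cultures, so the ESC p-values may reflect technical spread alone.

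Tight junctions are belts near the apical edge of epithelial cells that seal the space between neighbours. Claudins, occludin and junctional adhesion molecules span the membrane, while zonula occludens proteins and cingulin form a plaque beneath it that binds the actin cortex. In the mouse preimplantation embryo they seal the trophectoderm, the outer epithelium of the blastocyst, which lets the blastocoel fill.

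ESC libraries held 26775554 to 37482730 and embryo libraries 14701630 to 24939712 counts. Levels are given in CPM, the usual library-scaled count unit of RNA-seq. The limit for a transcript with no counts, set at 3 counts, was 0.0800 to 0.112 CPM in ESC and 0.120 to 0.204 CPM in embryo libraries. Klf5 itself stood at 942 and 882 CPM in Klf5 ESCs, against 80.5 and 70.8 CPM in GFP ESCs. It stood at 80.8 to 543 CPM (median 156) in Klf5 siRNA embryos, against 382 to 592 CPM (median 472) in scramble embryos. The embryo labelled Klf5 siRNA 1 had the 543 CPM, within the scramble range, so that its target level goes against its label. Mitochondrial transcripts took 2.45 to 10.3% of counts in Klf5 siRNA embryos and 4.34 to 18.5% in scramble embryos. Ribosomal protein transcripts took 7.85 to 14.1% of counts in Klf5 siRNA embryos and 3.86 to 9.32% in scramble embryos. In the ESCs all 10 pluripotency markers were present, with a summed level of 6090 and 6290 CPM in Klf5 ESCs and 5230 and 5350 CPM in GFP ESCs.

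The members lie on 8 mouse chromosomes (mm10). Cldn3 (ENSMUSG00000070473, chromosome 5, 134986214 to 134987472, plus strand) and Cldn4 (ENSMUSG00000047501, chromosome 5, 134945119 to 134946934, minus strand) are read in opposite directions from starts 39280 bases apart. F11r (ENSMUSG00000038235) lies on chromosome 1 from 171437535 to 171464603, Tjp1 (ENSMUSG00000030516) on chromosome 7 from 65296165 to 65527781, and Ocln (ENSMUSG00000021638) on chromosome 13 from 100496507 to 100552718. Cgn (ENSMUSG00000068876) lies on chromosome 3 from 94760069 to 94786492, and Tjp3 (ENSMUSG00000034917) on chromosome 10 from 81273207 to 81291581. Cldn6 (ENSMUSG00000023906) lies on chromosome 17 from 23679249 to 23682446 and Cldn7 (ENSMUSG00000018569) on chromosome 11 from 69964779 to 69967885. Exons of Tjp3 share 40 bases with Apba3 on the opposite strand, and exons of Cldn3 share 40 bases with the antisense RNA Wbscr25. No source used here states that counting kept strand, so reads of those bases cannot be assigned with certainty.

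The 250 bases before the RefSeq start site (GRCm38.p6, the assembly of mm10) are shown for the 5 members that passed a test in either experiment, and for Cgn, which alone carries the letters of a Grainyhead-like match. They read 5′ to 3′ on the gene's strand: Cldn3 chr5:134985964-134986213 (plus), Cldn4 chr5:134946935-134947184 (minus), F11r chr1:171437311-171437560 (plus), Tjp1 chr7:65371245-65371494 (minus), Ocln chr13:100552719-100552968 (minus) and Cgn chr3:94786483-94786732 (minus). Capitals mark each match, on either strand, to CCNCNCCC (GGGNGNGG on the other strand), the GC and CACCC box letters that Sp and Krüppel-like factors bind, or to AACNNGTT, the Grainyhead-like letters.
Cldn3: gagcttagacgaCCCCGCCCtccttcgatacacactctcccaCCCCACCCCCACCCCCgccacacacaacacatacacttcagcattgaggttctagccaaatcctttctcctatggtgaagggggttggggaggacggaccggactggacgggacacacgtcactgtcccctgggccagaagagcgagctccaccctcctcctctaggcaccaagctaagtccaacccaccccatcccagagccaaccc
Cldn4: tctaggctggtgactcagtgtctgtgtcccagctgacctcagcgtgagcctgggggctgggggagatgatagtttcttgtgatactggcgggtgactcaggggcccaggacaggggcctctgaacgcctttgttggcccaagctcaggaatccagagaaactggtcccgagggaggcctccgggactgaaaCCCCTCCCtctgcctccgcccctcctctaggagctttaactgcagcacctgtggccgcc
F11r: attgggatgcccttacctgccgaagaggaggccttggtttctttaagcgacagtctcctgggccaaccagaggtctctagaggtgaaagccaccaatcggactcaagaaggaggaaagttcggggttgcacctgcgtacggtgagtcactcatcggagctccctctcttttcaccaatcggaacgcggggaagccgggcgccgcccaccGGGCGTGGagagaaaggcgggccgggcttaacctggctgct
Tjp1: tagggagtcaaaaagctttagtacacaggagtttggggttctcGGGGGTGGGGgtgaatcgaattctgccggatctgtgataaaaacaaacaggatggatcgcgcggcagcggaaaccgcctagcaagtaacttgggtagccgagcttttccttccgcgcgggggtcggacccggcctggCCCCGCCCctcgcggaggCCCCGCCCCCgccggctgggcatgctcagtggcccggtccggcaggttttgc
Ocln: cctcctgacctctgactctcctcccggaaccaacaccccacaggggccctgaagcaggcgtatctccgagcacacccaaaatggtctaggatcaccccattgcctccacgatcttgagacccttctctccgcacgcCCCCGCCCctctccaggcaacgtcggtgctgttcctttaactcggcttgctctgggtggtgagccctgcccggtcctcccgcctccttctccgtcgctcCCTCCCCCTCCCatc
Cgn: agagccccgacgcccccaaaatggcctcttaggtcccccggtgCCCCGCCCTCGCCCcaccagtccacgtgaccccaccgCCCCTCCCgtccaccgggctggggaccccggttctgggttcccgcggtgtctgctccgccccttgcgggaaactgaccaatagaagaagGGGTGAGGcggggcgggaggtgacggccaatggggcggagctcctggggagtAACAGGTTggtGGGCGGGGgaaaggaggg
In these windows Cldn3 held 5 matches to the GC and CACCC letters, several of them overlapping in 1 run. Cldn4 held 1 and F11r 1, while Tjp1 held 5, Ocln 3 and Cgn 5. Of the 9 members, 8 had such a match in at least 1 RefSeq promoter, all but Cldn6. These letters are common, occurring in 45.9% of 32851 promoters of the same length and in 48.5% of 27025 genes. The Grainyhead-like letters were found in 1 of 9 members, beside 4.11% of genes and 3.64% of promoters. The Tjp1 window lies inside the annotated gene, whose longest form starts farther upstream. A match is a description of the letters and no evidence of binding.

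Among the members, the leading transcript was Cldn4 in ESCs and Cldn7 in embryos, and no member was at 0 in every library of a group. Levels between genes are given as CPM per kilobase of the mean protein-coding transcript. Cldn4 led in ESCs, at 164 ± 26.2 CPM per kilobase in Klf5 ESCs and 461 ± 82.0 in GFP ESCs (SD, n = 2 each). Cldn7 led in embryos, at 387 ± 145 in Klf5 siRNA embryos (n = 6) and 317 ± 166 in scramble embryos (n = 10). The level of Cldn7 divided by that of Cldn4, per kilobase, was 0.526 and 0.535 in Klf5 ESCs and 0.306 and 0.310 in GFP ESCs. It was 2.89 to 37.5 in Klf5 siRNA embryos and 2.78 to 14.3 in scramble embryos, above 1 in all 16 embryos. ESC and embryo libraries were made with different kits, so cell source and kit cannot be told apart.

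In Klf5 ESCs the order after Cldn4 was Cldn7 (87.2 CPM per kilobase), Cgn (36.4), Cldn6 (24.9), F11r (19.3), Cldn3 (13.6), Tjp3 (13.4), Tjp1 (11.6) and Ocln (3.62). In GFP ESCs it was Cldn7 (142), Cgn (62.0), F11r (31.0), Cldn6 (29.5), Cldn3 (27.9), Tjp3 (19.2), Tjp1 (9.79) and Ocln (3.35). The libraries of Cgn and Cldn6, of Cldn6 and F11r, of Cldn3 and Tjp3 and of Tjp3 and Tjp1 overlapped in Klf5 ESCs. In GFP ESCs those of F11r and Cldn6 and of Cldn6 and Cldn3 did. Occludin was thus the lowest member in both ESC groups, with every library of it under those of the next member.

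In Klf5 siRNA embryos Cldn7 was followed by Cldn4 (40.3 CPM per kilobase), F11r (20.8), Cgn (16.3), Cldn3 (7.81), Cldn6 (6.65), Ocln (2.57), Tjp1 (1.59) and Tjp3 (0.397). In scramble embryos it was followed by Cldn4 (58.8), F11r (36), Cgn (13.7), Cldn3 (12.6), Ocln (6.18), Tjp1 (4.77), Cldn6 (2.23) and Tjp3 (1.88). Over embryos, the ranges of Cldn7 and Cldn4 did not overlap in the Klf5 siRNA group, at 214 to 640 and 6.13 to 139 CPM per kilobase. The ranges of all other neighbours in both orders overlapped, although Cldn7 was above Cldn4 within each of the 10 scramble embryos. Cldn6, a claudin known for its expression in early embryonic epithelia, was at 0 in 1 of 6 Klf5 siRNA embryos and 2 of 10 scramble embryos. Tjp3, whose protein binds claudins and occludin, was at 0 in 4 of 6 and 3 of 10.

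**Figure D1:**
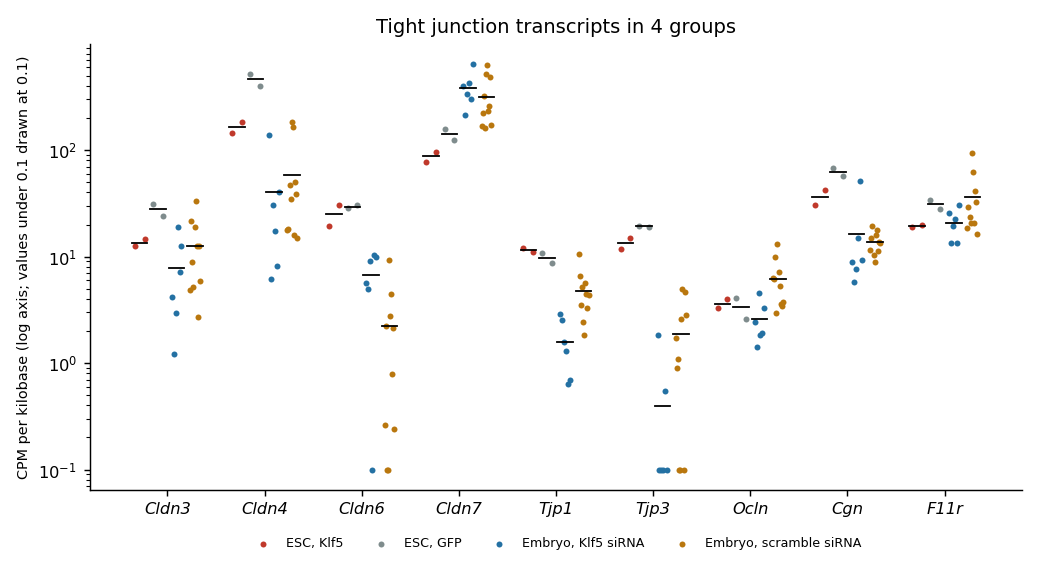
CPM per kilobase (log axis, values under 0.1 drawn at 0.1) of the 9 members, with 1 point for each library and a line for the mean of each group. Cldn4 is the highest member in all 4 ESC libraries and Cldn7 in all 16 embryos.

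Overexpression in ESCs addresses what a higher Klf5 level does to these transcripts. Of the 9 members, Cldn4, Cldn3 and F11r fell in Klf5 ESCs, 3 in all, and none rose (0 higher also at an unadjusted p under 0.05, with DESeq2 and with limma voom). Over all 15968 genes tested 2.78% were called, 1.11% as lower and 1.67% as higher (edgeR quasi-likelihood test, adjusted p under 0.05). All 9 members passed the filter on low counts. Their median log2 fold change was −0.69, beside 0.00 over all genes tested, and 7 of 9 had a value below 0, as did 50.4% of all genes tested.

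Cldn4, whose protein is a claudin of many epithelia, held 265 and 332 CPM in Klf5 ESCs, against 942 and 732 CPM in GFP ESCs. Every Klf5 library lay under both GFP libraries. This was a 2.81-fold lower level, the most of any member (log2 fold change −1.49 ± 0.18 SE, edgeR adjusted p = 0.0285). Cldn3, which lies near it on chromosome 5, held 15.8 and 18.3 CPM in Klf5 ESCs, against 39.7 and 30.5 CPM in GFP ESCs. It fell 2.06-fold (log2 fold change −1.04 ± 0.17 SE, adjusted p = 0.0354). F11r, encoding junctional adhesion molecule A, held 47.5 and 49.5 CPM in Klf5 ESCs, against 85.7 and 70.5 CPM in GFP ESCs. It fell 1.61-fold (log2 fold change −0.69 ± 0.13 SE, adjusted p = 0.0486). Both groups were apart for each of these 3 transcripts.

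3 further members were lower in both Klf5 libraries than in both GFP libraries without passing. Cldn7, a claudin also found along lateral membranes, held 64.3 and 79.3 CPM in Klf5 ESCs, against 131 and 103 CPM in GFP ESCs (log2 fold change −0.71 ± 0.16 SE, edgeR adjusted p = 0.0653). Cgn, encoding the plaque protein cingulin, held 111 and 153 CPM in Klf5 ESCs, against 245 and 207 CPM in GFP ESCs (−0.77 ± 0.18, adjusted p = 0.0666). Tjp3 held 26.2 and 32.9 CPM, against 42.7 and 41.9 CPM in GFP ESCs (−0.52 ± 0.15, adjusted p = 0.101). With 2 libraries a group such separation was frequent, at 56.4% of all genes tested in either direction. Lower without overlap were 6 of 9 members and 27.4% of all genes tested, and 1 member and 28.9% of genes were higher without overlap.

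Cldn6, Ocln and Tjp1 did not pass either. Cldn6 held 26.4 and 42.2 CPM in Klf5 ESCs, against 38.9 and 42.2 CPM in GFP ESCs (log2 fold change −0.24 ± 0.22 SE, edgeR adjusted p = 0.552). Ocln, encoding occludin, held 7.62 and 9.26 CPM, against 9.51 and 6.12 CPM in GFP ESCs (0.12 ± 0.26, adjusted p = 0.814). Both ranges overlap. Tjp1, encoding ZO-1, the scaffold that links claudins to actin, held 54.6 and 50.6 CPM in Klf5 ESCs, against 49.4 and 40.2 CPM in GFP ESCs (0.23 ± 0.14, adjusted p = 0.362). Fitted changes of plaque and membrane genes thus stood on both sides of 0.

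**Figure D2:**
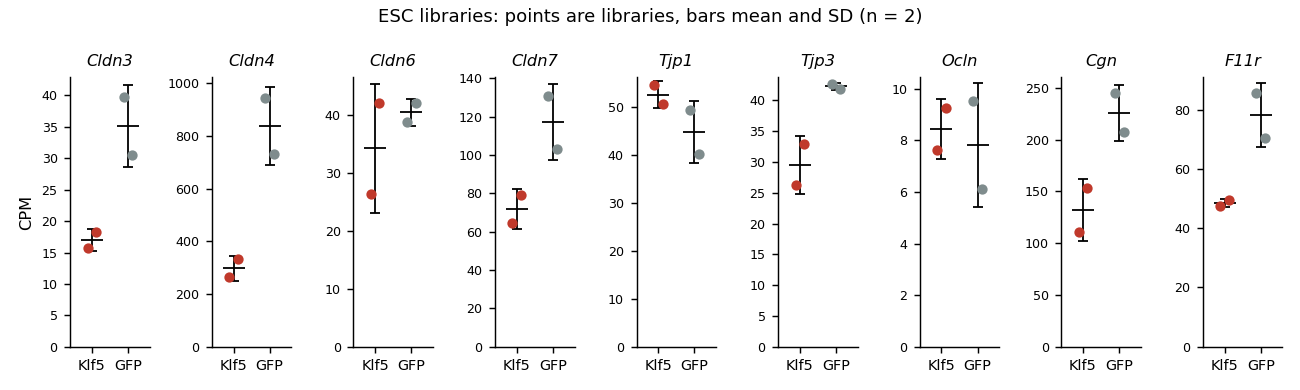
CPM of each member in the 2 Klf5 and 2 GFP ESC libraries (linear axis from 0, points are libraries, bars are mean and SD). Cldn3, Cldn4, Cldn7, Tjp3, Cgn and F11r lie lower in both Klf5 libraries, Tjp1 lies higher, and Cldn6 and Ocln overlap.

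The calls rest on few libraries. Without GFP 1, which leaves 1 GFP library, Cldn4 lay at −1.30, Cldn3 at −0.84 and F11r at −0.54 on the log2 scale. Each of these 3 calls was lost in at least 1 fit with a library left out. The number of calls over all genes tested also changed widely between those fits, so the changes are not read as particular to the members. F11r lost its call with limma voom too (limma voom adjusted p = 0.0586). None of the 9 members passed a test against a 1.5-fold change, which 1 of all 15968 genes tested passed.

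Summed levels of markers of other cell types differed between the ESC groups, although single markers of a list did not all go the same way. The summed level of 12 feeder fibroblast markers was 1300 to 1310 CPM in Klf5 ESCs and 743 to 939 CPM in GFP ESCs, with 1 of 11 tested markers past the threshold, higher. That of 12 primitive endoderm markers was 861 to 1930 CPM and 627 to 816 CPM in GFP ESCs, with 4 of 12 higher. Most of that sum was Lamb1 and Lama1. Lamb1 held 640 ± 310 CPM in Klf5 ESCs and 527 ± 93.7 CPM in GFP ESCs, and Lama1 440 ± 259 and 125 ± 37.9 CPM. Neither passed (edgeR adjusted p = 0.696 and 0.175). For 12 trophectoderm markers the summed level was 342 to 698 CPM in Klf5 ESCs and 934 to 1920 CPM in GFP ESCs, with 0 of 12 past the threshold. Most of that sum in GFP ESCs was Krt8 (600 ± 360 CPM) and Krt18 (541 ± 291 CPM), which did not pass (edgeR adjusted p = 0.395 and 0.321). Log2 fold changes were below 0 for 2 of 11 feeder, 0 of 12 primitive endoderm and 8 of 12 trophectoderm markers tested. No marker in these 3 lists was at 0 in every library of a group. In these bulk samples fewer cells of a type and less RNA per cell cannot be told apart. The part of these cell types in the lower claudin levels was not tested.

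Further tight junction genes came from 3 lists. None of 8 tested among 20 other claudin genes passed in edgeR, DESeq2 or limma voom, and 1 had an unadjusted p under 0.05 (median log2 fold change 0.14). Cldn19 had the smallest p, at 3.23 ± 0.484 CPM in Klf5 ESCs and 1.83 ± 0.0572 CPM in GFP ESCs (edgeR adjusted p = 0.132). Of 10 other membrane genes tested, Jam2, a further junctional adhesion molecule gene, alone passed, at 138 ± 32.5 CPM in Klf5 ESCs and 47.1 ± 5.77 CPM in GFP ESCs, and was higher (log2 fold change 1.55 ± 0.18 SE, adjusted p = 0.0285). Of 12 other plaque genes Magi3, encoding a scaffold with PDZ domains, alone passed and was higher, at 5.94 ± 0.756 CPM and 2.32 ± 0.372 CPM in GFP ESCs (adjusted p = 0.0427). F11r and Jam2, both of the junctional adhesion molecule family, thus went opposite ways. Over all genes tested 2.78% were called. The number of calls in these lists changed with the library left out, as did that over all genes tested.

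Among 12 tested regulators of epithelial junction genes, Grhl2 alone passed, beside 2.78% of all genes tested. It encodes a Grainyhead-like transcription factor known to act on claudin genes in epithelia, and held 5.66 to 7.83 CPM in Klf5 ESCs and 19.3 to 22.7 CPM in GFP ESCs (log2 fold change −1.64 ± 0.21 SE, edgeR adjusted p = 0.0285). The other 11 regulators did not pass. The number of regulators called changed with the library left out, as did that over all genes tested. Median log2 fold changes were 0.24 for the other membrane genes, −0.10 for the other plaque genes and 0.05 for the regulators, beside 0.00 over all genes tested.

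The siRNA embryos address what a lower Klf5 level does to them. Of the 9 members, Tjp1 and Ocln fell in Klf5 siRNA embryos, 2 in all, and none rose (0 higher also at an unadjusted p under 0.05, with DESeq2 and with limma voom). Over all 12385 genes tested 19.8% were called, 7.74% as lower and 12% as higher, so the members' share is near that of all genes. All 9 members were tested. Their median log2 fold change was −0.69, beside −0.01 over all genes tested, and 6 of 9 values were below 0, as were 50.2% of all genes tested. No member was free of overlap between the groups, as were 4.81% of genes tested, 1.91% lower and 2.91% higher.

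Tjp1 ranged over 2.89, 6.5 and 13.1 CPM (lowest, median and highest) in Klf5 siRNA embryos, against 8.31, 20.1 and 48.3 CPM in scramble embryos. All 6 Klf5 siRNA embryos lay below the scramble median and 4 of 6 below the lowest scramble embryo. The mean was 7.27 ± 4.23 CPM in Klf5 siRNA embryos (n = 6) and 21.8 ± 11.4 CPM in scramble embryos (n = 10), a 3.00-fold lower level (log2 fold change −1.58 ± 0.42 SE, edgeR adjusted p = 0.0116). The call held with each of the 16 embryos left out in turn, and Tjp1 lay at −1.87 without Klf5 siRNA 1 (adjusted p = 0.00639), but it did not pass against a 1.5-fold change (adjusted p = 0.0509). With the mitochondrial percent of each library as a covariate Tjp1 lay at −0.48 (adjusted p = 0.397) and was not called.

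Ocln ranged over 3.35, 5.09 and 10.5 CPM in Klf5 siRNA embryos, against 6.86, 13.4 and 30.5 CPM in scramble embryos. Again all 6 lay below the scramble median and 4 of 6 below the lowest scramble embryo. The mean was 6.00 ± 2.67 CPM and 14.4 ± 7.56 CPM in scramble embryos, a 2.40-fold lower level (log2 fold change −1.26 ± 0.38 SE, edgeR adjusted p = 0.0258). Without Klf5 siRNA 1 Ocln lay at −1.24 (adjusted p = 0.048). It was no longer called when Klf5 siRNA 2, 4 or 5 was left out (adjusted p = 0.0595, 0.0566 and 0.0601), without scramble 5 and 6 (0.0504), with an offset for gene length (0.0721) or with limma voom (0.0597). With the mitochondrial percent as a covariate occludin kept its call.

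F11r ranged over 33.6, 52.8 and 77.1 CPM in Klf5 siRNA embryos, against 41.2, 66.3 and 239 CPM in scramble embryos (log2 fold change −0.79 ± 0.37 SE, edgeR adjusted p = 0.144). The groups overlap, and the highest values, 239 and 157 CPM, were those of scramble 5 and 6. With the mitochondrial percent as a covariate F11r lay at −1.60 (adjusted p = 0.00220), and with detected genes as a covariate at −0.45 (adjusted p = 0.436). The fitted level of the F11r transcript was below that of the controls in both experiments, although Klf5 went opposite ways, and it passed in ESCs. Fitted changes were below 0 in both experiments for Cldn3, Cldn4 and Tjp3 too, which did not pass in embryos.

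The claudin genes did not pass in embryos. Cldn4 held 253, 11.1, 55.8, 31.4, 14.7 and 73.4 CPM in Klf5 siRNA embryos 1 to 6, against 26.9 to 337 CPM (median 66.4) in scramble embryos. The 253 CPM belonged to the embryo labelled Klf5 siRNA 1, whose Klf5 level was that of the scramble embryos, and the highest scramble values, 337 and 301 CPM, to embryos 5 and 6. The log2 fold change was −0.55 ± 0.68 SE (edgeR adjusted p = 0.616). It was −1.5 without Klf5 siRNA 1 (adjusted p = 0.130) and 0.39 without scramble 5 and 6 (adjusted p = 0.665), so its size and its sign changed with these 3 embryos.

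Cldn7 ranged over 176, 304 and 528 CPM in Klf5 siRNA embryos, against 133, 203 and 515 CPM in scramble embryos (log2 fold change 0.29 ± 0.32 SE, edgeR adjusted p = 0.564). Cldn3 ranged over 1.53, 7.13 and 23.8 CPM, against 3.42, 13.6 and 41.5 CPM in scramble embryos (−0.69 ± 0.57, adjusted p = 0.420). Cldn6 ranged over 0, 10.1 and 14.3 CPM, against 0, 2.02 and 12.9 CPM in scramble embryos (1.57 ± 1.00, adjusted p = 0.286). All 3 overlap widely between the groups. Cldn7 was at −0.34 with a length offset and at −0.53 with the mitochondrial percent as a covariate, so its sign depends on the fit.

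Among plaque members, Cgn held 32.0, 20.9, 27.8, 54.8, 185 and 34.0 CPM in Klf5 siRNA embryos 1 to 6, against 32.5 to 70.3 CPM (median 49.2) in scramble embryos. Embryo 5 alone lay above all scramble embryos, and 3 lay below them all. The log2 fold change was 0.24 ± 0.38 SE (edgeR adjusted p = 0.695) and −0.57 without Klf5 siRNA 5 (adjusted p = 0.159). Tjp3 had a highest value of 4.04 CPM in Klf5 siRNA embryos, in embryo 1, and of 11.0 CPM in scramble embryos (−2.26 ± 1.47, adjusted p = 0.298).

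**Figure D3:**
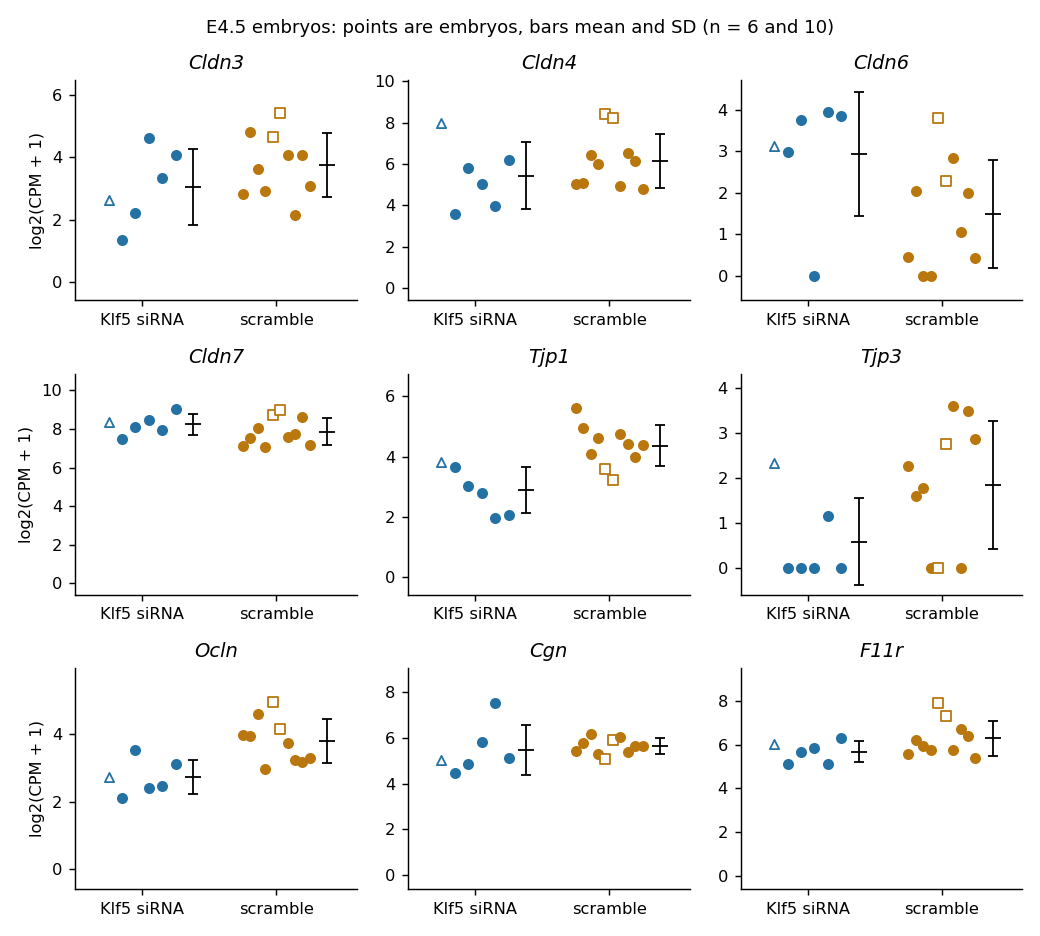
log2(CPM + 1) of each member in single embryos, with bars for the mean and SD. The triangle is the embryo labelled Klf5 siRNA 1 and the squares are scramble embryos 5 and 6. Tjp1 and Ocln lie lower in most Klf5 siRNA embryos, and the groups overlap for every member.

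Some other tight junction genes were called, beside 7.74% lower and 12% higher over all genes tested. Of 11 other plaque genes tested 5 fell and 1 rose, and of 10 other membrane genes 2 fell, beside 0 of 4 tested claudins, where Cldn12 had the smallest p (4.74 ± 2.40 CPM in Klf5 siRNA embryos, 11.2 ± 8.29 CPM in scramble embryos, edgeR adjusted p = 0.101). Of those claudins 1 had an unadjusted p under 0.05, DESeq2 called 1 higher and 1 lower among all it tested, and limma voom called 0. Median log2 fold changes were −0.76 for the plaque genes, −0.05 for the membrane genes and −0.93 for those claudins, beside −0.01 over all genes tested. Ildr1, encoding a protein of tricellular contacts, held 2.58 to 6.73 CPM in Klf5 siRNA embryos and 10.3 to 31.4 CPM in scramble embryos (log2 fold change −2.20 ± 0.34 SE, adjusted p = 0.000249). Marveld2, encoding tricellulin, held 2.94 ± 1.37 CPM and 8.20 ± 3.42 CPM in scramble embryos (adjusted p = 0.0203). Lsr and Ildr2, whose proteins are also found at tricellular contacts and which are given here after their values were seen, did not pass, with log2 fold changes of −0.44 and 1.56 (adjusted p = 0.409 and 0.193). In place of 8 calls in these lists, 4 were made without Klf5 siRNA 2 and 4.

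In the plaque, Cgnl1, encoding the cingulin relative paracingulin, held 3.13 to 14.0 CPM in Klf5 siRNA embryos and 22.9 to 52.7 CPM in scramble embryos (log2 fold change −1.62 ± 0.31 SE, edgeR adjusted p = 0.00125). Magi3 held 1.12 to 4.04 CPM and 4.68 to 36.1 CPM in scramble embryos (adjusted p = 0.000405). These 2 and Ildr1 were lower without overlap, as were 1.91% of all genes tested. Ybx3, encoding a partner of ZO-1, held 111 ± 60.1 CPM and 265 ± 85.5 CPM in scramble embryos (adjusted p = 0.00724). Pard3, encoding a polarity protein, held 27.2 ± 6.99 CPM and 46.6 ± 13.4 CPM in scramble embryos (adjusted p = 0.0396). Magi1 rose, at 15.9 ± 4.59 CPM in Klf5 siRNA embryos and 7.05 ± 3.05 CPM in scramble embryos (adjusted p = 0.0194).

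Of 11 tested regulators, Tfap2a and Cdx2 fell and Snai2 rose, beside 7.74% lower and 12% higher over all genes tested. Tfap2a, encoding an AP-2 factor, held 5.70 ± 5.68 CPM in Klf5 siRNA embryos and 40.2 ± 20.6 CPM in scramble embryos (edgeR adjusted p = 0.00388), and Cdx2, encoding a trophectoderm homeobox factor, 8.39 ± 7.92 CPM and 45.3 ± 40.6 CPM in scramble embryos (adjusted p = 0.0196). Snai2, encoding a repressor of epithelial genes, held 0 to 31.3 CPM (median 2.51) in Klf5 siRNA embryos and 0 to 0.807 CPM (median 0) in scramble embryos (adjusted p = 0.00361). The 3 calls became 1 without Klf5 siRNA 2 and 4, 1 without scramble 5 and 6, and 5 without Klf5 siRNA 3. Grhl2, given here because it passed in ESCs, did not pass, at 14.3 ± 13.1 CPM and 26.5 ± 6.14 CPM in scramble embryos (adjusted p = 0.162). Trophectoderm markers, a list that also holds Cdx2, moved with the groups. Their sum over 12 genes was 241 to 2590 CPM (median 1060) in Klf5 siRNA embryos and 2470 to 8920 CPM (median 3710) in scramble embryos, with 9 of 12 lower. The 12 primitive endoderm markers summed to 284 to 546 CPM in Klf5 siRNA embryos and 417 to 782 CPM in the scramble group, with 2 of 11 tested lower and 10 of 11 log2 fold changes below 0. The 10 pluripotency markers summed to 520 to 1060 CPM and 320 to 919 CPM in the scramble group, with 2 higher and 1 lower. Of their log2 fold changes 6 of 10 were below 0, with a median of −0.38. No marker of these lists was at 0 in every embryo of a group. The part of these cell types in the lower Tjp1 and Ocln was not tested.

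**Figure D4:**
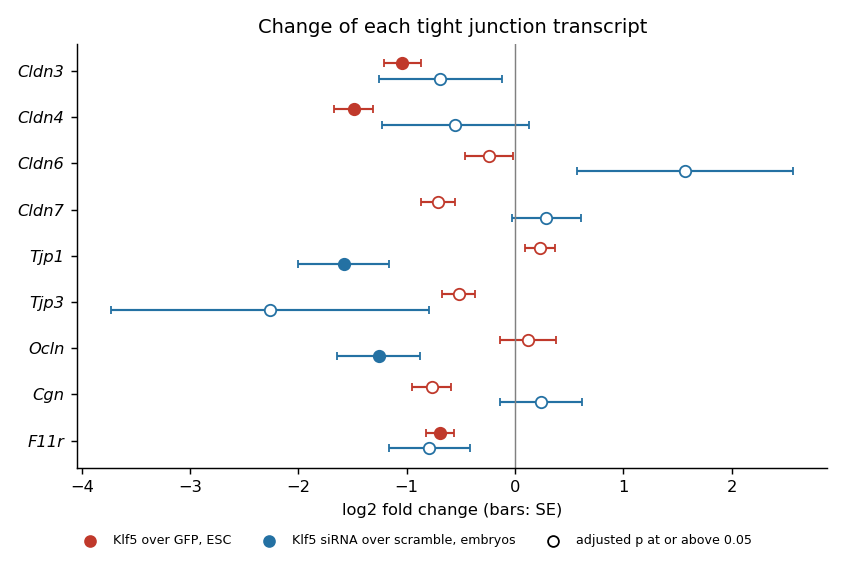
Log2 fold change with SE of each member for Klf5 over GFP in ESCs and for Klf5 siRNA over scramble in embryos, filled where the edgeR adjusted p was under 0.05. The filled points are Cldn3, Cldn4 and F11r in ESCs and Tjp1 and Ocln in embryos, and no member is filled in both.

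The members called in one experiment were not those called in the other. Side by side, as log2 fold changes, Cldn4 stood at −1.49 in ESCs and −0.55 in embryos, Cldn3 at −1.04 and −0.69, and F11r at −0.69 and −0.79. Tjp1 stood at 0.23 in ESCs and −1.58 in embryos, and Ocln at 0.12 and −1.26. These differences between experiments were not tested.

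Single embryos of the scramble group differed widely in the levels of most members. Cldn6 and Tjp3 were at 0 in 2 and 3 of these embryos, so no ratio is given for them. Between the lowest and the highest scramble embryo Cldn4 varied 12.5-fold, Cldn3 12.1-fold, Tjp1 5.81-fold, F11r 5.79-fold, Ocln 4.45-fold, Cldn7 3.89-fold and Cgn 2.16-fold. Klf5 varied 1.55-fold over the same 10 embryos. Scramble 5 and 6 stood apart, holding the most Cldn4, Cldn7 and F11r (424 and 515 CPM of Cldn7) and the least Tjp1 (11.0 and 8.31 CPM). They also had the lowest mitochondrial percent, 4.34 and 5.48%, against 8.04 to 18.5% in the other 8, and the highest totals, 24939712 and 24859889 counts. The part of library make-up in their levels was not tested.

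Pairs of members were related across the 10 scramble embryos, on log2 CPM. 5 of 36 pairs passed by Pearson correlation (100000 permutations, adjusted over the 36) and 1 by Spearman correlation. The 5 were the 3 pairs among Cldn4, Cldn7 and F11r, which varied in the same direction, and the pairs of Tjp1 with Cldn4 and with Cldn7, which varied in opposite directions. Since scramble 5 and 6 form a cluster of their own, coefficients are given for the other 8 embryos, chosen after the data were seen. Cldn4 and F11r then had r = 0.66 and rho = 0.83 (exact permutation p = 0.0863 and 0.0163), and Tjp1 and Cldn7 r = −0.67 and rho = −0.67 (exact permutation p = 0.0700 and 0.0831). None of the 36 pairs passed the adjustment over these 8 (lowest adjusted p = 0.542 by r and 0.586 by rho). The other 3 pairs that passed over 10 embryos had r = 0.56 for Cldn4 and Cldn7, −0.61 for Cldn4 and Tjp1 and 0.64 for Cldn7 and F11r in the 8. All 5 kept their direction, with fewer embryos and smaller coefficients. The 8 embryos are part of the 10 in which these pairs were picked, so this is not a separate test.

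The level of Tjp1 was also set against the mitochondrial percent. Among the 8 scramble embryos other than 5 and 6 the correlation was r = 0.82 and rho = 0.83 (exact two-sided permutation p = 0.0146 and 0.0154), with adjusted p = 0.131 and 0.138 over the 9 members. The other 8 members had an adjusted p of 0.327 or more for r. This relation did not pass the adjustment in the 8 embryos. Klf5 siRNA embryos had a median mitochondrial percent of 4.23, against 12.6 for the scramble group. With all 10 scramble embryos 6 of 18 relations of members with the mitochondrial percent or with total counts passed by Pearson. By Spearman 1 passed, that of Tjp1 with the mitochondrial percent (rho adjusted p = 0.0148). The 6 included Cldn4 (r = −0.87), Cldn7 (−0.84), F11r (−0.82) and Tjp1 (0.91) with the mitochondrial percent. The others were Cldn7 (0.76) and Tjp1 (−0.77) with total counts. The same genes make up the pairs of members that passed over these 10 embryos. The part of library make-up in those pairs was not tested.

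**Figure D5:**
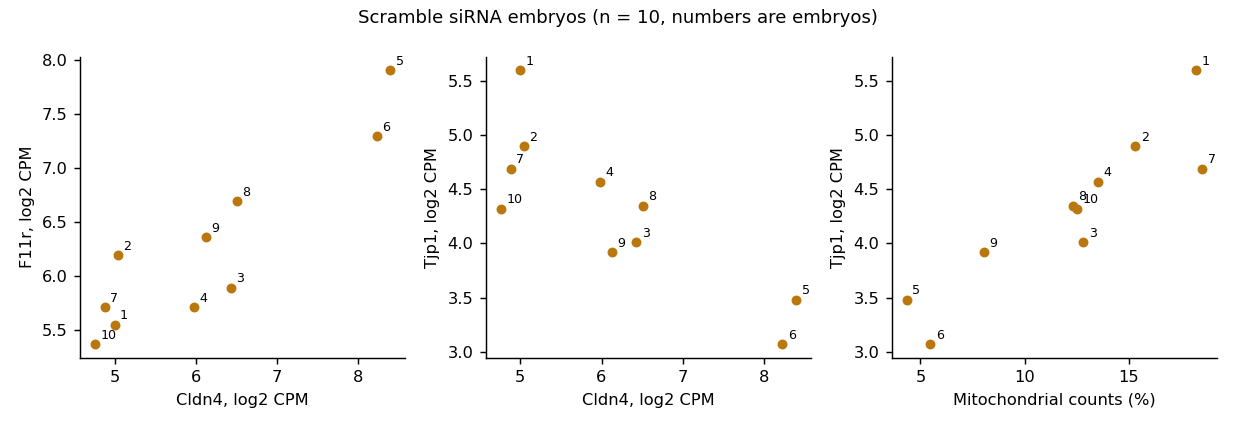
F11r and Tjp1 against Cldn4 (log2 CPM) and Tjp1 against the percent of counts on mitochondrial genes in the 10 scramble embryos, numbered. Embryos 5 and 6 lie apart with high Cldn4, high F11r, low Tjp1 and the lowest mitochondrial percent.

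The genes whose levels were most like the mean standardized level of the 9 members over the 10 scramble embryos were sought among 6337 genes with a mean of at least 10 CPM. They were Pla2g15 (r = 0.94), Rab24, Acadm and Pepd (0.93 each) and Gstz1 (0.92). These coefficients are the highest of 6337 and share libraries with the members, so they are given as a description without a test.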

How the data were processed

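Polyadenylated RNA was measured. The authors deposited estimated counts (expected counts) per Ensembl gene, not scaled to library size, for which the submitters' processing notes name kallisto 0.46 and the build mm10. The annotation release and the handling of feeder reads are not given in the sources used here. Per the labels' protocols, ESC libraries used TruSeq v2 reagents and embryo cDNA the SMARTseq-V4 kit. Of 30265 genes 29910 matched a GENCODE M21 symbol and 355 did not. Estimated counts were rounded (largest change of a total 0.000756%), filtered with filterByExpr (lowest count 10), scaled with TMM and tested per experiment with robust quasi-likelihood tests in edgeR 4.0.16 under R 4.3.3, adjusted by Benjamini and Hochberg over all genes (threshold 0.05). CPM use scaled library sizes, except floors of 3 counts, log2 CPM a prior count of 2. An SE is the absolute log2 fold change divided by the square root of F. Floors cover counting error only. No libraries were counted as repeats of 1 library (lowest chi-square per degree of freedom 21.1).

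The members, lists and alternatives were chosen with earlier results of these data known. Named are all members, Klf5, up to 8 genes past the threshold per list and comparison or else the gene with the smallest p, and the 5 genes most like the members. Relations within the 8 embryos and with library measures, the crossed block and the fit without scramble 5 and 6 were chosen after seeing the data. Alternatives were RLE and upper quartile scaling, DESeq2 1.42.0, limma 3.58.1 voom with and without quality weights, other filters, a 1.5-fold test, covariates, a length offset, a replicate block and libraries left out. The tests were first run on simulated counts with known changes. In these runs some ESC calls were false, and most 2-fold changes in embryos went uncalled. Levels between genes are CPM per kilobase of the mean protein-coding transcript in GENCODE M21. The result of 1 gene past the threshold among the other plaque genes is not reported here.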

Additional observations from a re-analysis of the deposited data

Results flagged for a closer look

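Of 20 groups of embryo values for the members and Klf5, 1 held an embryo far from the others. Cldn6 was at 0 CPM in Klf5 siRNA embryo 4, against 6.84 to 14.3 CPM in the other 5 Klf5 siRNA embryos. 2 scramble embryos were also at 0. For normally spread values chance flags about 1 in 20 groups. On the log2 scale a zero stands at a floor set by the prior count, so that rate need not hold here.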

How the results depend on the processing

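In ESCs the 3 members past the threshold became 6 with DESeq2, 5 without a filter, 5 above a mean of 5 CPM, 2 with limma voom, 0 against a 1.5-fold change, 1 (Cldn4) with the replicate block and 5 with the block crossed, and 0 to 6 with 1 library left out. The 2 other tight junction genes became 1 with limma voom, 1 above 5 CPM, 0 against a 1.5-fold change and 1 with the block (0 to 2 with 1 library left out), and the 1 regulator 0 against a 1.5-fold change (0 to 2). Over all genes 444 became 1438, 281 (voom), 870 (no filter), 1, 155 (block) and 1475 (crossed), and 1 to 998 with 1 library left out. Deviations of same-numbered ESC libraries from their group mean correlated at −0.11. With 2 libraries a group these deviations mirror each other, so this is 1 value and cannot decide on pairing. In embryos same-numbered pairs correlated from −0.11 to 0.11. The labels state no pairing, and the numbers are not read as pairs.

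In embryos the 2 members became 1 with voom, with quality weights, with the length offset, with the replicate block over 12 embryos and without Klf5 siRNA 2 and 4 or scramble 5 and 6, 0 against a 1.5-fold change, and 1 to 2 with 1 embryo left out. The 8 other tight junction genes became 4 (1.5-fold change, block, without Klf5 siRNA 2 and 4) and 5 (the 12 embryos unblocked), and 6 to 9 with 1 embryo left out. The 3 regulators became 5 (DESeq2), 6 (voom, with and without weights) and 1 (block, without Klf5 siRNA 2 and 4, without scramble 5 and 6), and 2 to 5 with 1 embryo left out. Over all genes 2447 became 947 (1.5-fold change), 902 (block) and 1423 (the 12 unblocked), and 2103 to 2470. The cause was not tested.

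Of members not called, signs turned for Cgn in embryos (−0.17 voom, −0.24 block, −0.05 weights; −0.57 to 0.40 with 1 embryo left out), Cldn7 (−0.34 length offset, −0.53 mitochondrial covariate), Cldn4 (0.00 with detected genes as a covariate, 0.39 without scramble 5 and 6), and in ESCs with 1 library left out for Cldn6 (−0.62 to 0.06) and Ocln (−0.17 to 0.46). With the longest transcript 2 members changed rank in GFP ESCs and 2 in scramble embryos. The 5 passing pairs stayed within 1.5 times with RLE scaling and a prior count of 0.5. At this depth a zero of Cldn6 or Tjp3 allows a level of up to 0.12 to 0.204 CPM in embryos, for counting error only.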
